A study of Mus musculus with 15 samples.

Results

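Integrins are the receptors by which fibroblasts hold on to their matrix. The 10 integrin subunit genes followed here, Itga1, Itga2, Itga3, Itga5, Itga8, Itga11, Itgav, Itgb1, Itgb3 and Itgb5, were taken by name from a table of 48440 genes measured by RNA sequencing in cultured mouse lung fibroblasts. All 10 had enough reads to enter the tests, among 18167 genes in all.

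An integrin is a pair of an α and a β chain that spans the membrane. Outside the cell the pair grips a ligand such as collagen, laminin or fibronectin, and inside it is tied to actin through talin and kindlin. In the lung, fibroblast integrins carry the pull of the cell on its matrix, and those with the αv chain also release TGF-beta from its latent complex in the matrix.

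The cells were primary lung fibroblasts of C57BL/6 mice, kept at 3% oxygen. Each of 5 groups held 3 libraries, from 3 fibroblast strains per genotype. Atm encodes a kinase of the DNA break response. Atm-/- cells were sampled at passage 8 and passage 2. Atm+/+ cells labelled passage 2 were harvested 10 days after 10 Gy of X-rays, a dose given to bring on senescence, and unirradiated Atm+/+ cells were sampled at passage 8 and passage 2. The labels give neither the age nor the sex of the mice. They do not say which part of Atm is deleted or whether the irradiated cells have an unirradiated partner of the same strain. Levels are given as TMM-normalised CPM, which scales counts to library depth, for 1 gene across libraries. To set genes beside each other, and to sum genes, the deposited TPM, which also corrects for gene length, is used. It was not TMM-normalised, so gaps between groups in TPM can differ from those in CPM. Replicates are given in the order 1, 2 and 3 throughout.

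Libraries held between 13.65 and 39.21 M counts. The labelled Atm-/- passage 8 replicate 3 (13.65 M) and Atm+/+ passage 2 replicate 3 (23.6 M) stood apart: thinned to the same depth they showed reads for 15037 and 17223 genes, while the remaining 13 libraries had 20106 or more. Atm itself had reads in every library, with a log2 fold change in Atm-/- against Atm+/+ cells of -0.24 at passage 8 (edgeR adjusted p = 0.788, SE 0.53) and -0.17 at passage 2 (edgeR adjusted p = 0.883, SE 0.52), so the gene-level counts are no check on genotype. All 10 fibroblast markers, among them Col1a1, Pdgfra and Thy1, were at 1 TPM or more in each library, except Lum in Atm+/+ passage 2 replicate 3 (0.8601 TPM). The summed level of 8 macrophage markers was 14.9 to 45.0 TPM in Atm-/- passage 8 libraries, 989 to 1486 in Atm-/- passage 2, 1584 to 2644 in irradiated Atm+/+, 42.9 to 78.6 in Atm+/+ passage 8 and 2011 to 2274 in Atm+/+ passage 2. The early cultures and the irradiated ones thus had macrophage marker RNA at levels the passage 8 cultures did not reach. In bulk RNA, fewer cells of a type and less RNA per cell cannot be told apart.

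In every library the most abundant of these chains, by TPM, were Itgb1, Itgb5 and Itga5. Itgb1, the β chain shared by the collagen, laminin and fibronectin receptors, ran from 214 to 1072 TPM over the 15 libraries. Itgb5, which pairs with αv, ran from 174 to 435 TPM. Itga5, the α chain of the fibronectin receptor, ran from 93.8 to 522 TPM. It made up 70.0% to 84.2% of the summed TPM of the 7 α chains in every library. The other α chains were far lower, with Itga8 at 3.98 to 44.7, Itga11 at 2.11 to 40.7 and Itgav at 10.1 to 19.3 TPM. Itga1 was at 1.37 to 12.5, Itga3 at 0.621 to 18.3 and Itga2 at 0 to 3.15 TPM, and of the β chains Itgb3 at 1.38 to 20.4 TPM. The order of the leading 3 differed between groups: Itga5 averaged above Itgb5 in irradiated and in passage 8 Atm+/+ cells, and below it in the other 3 groups.

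**Figure D1:**
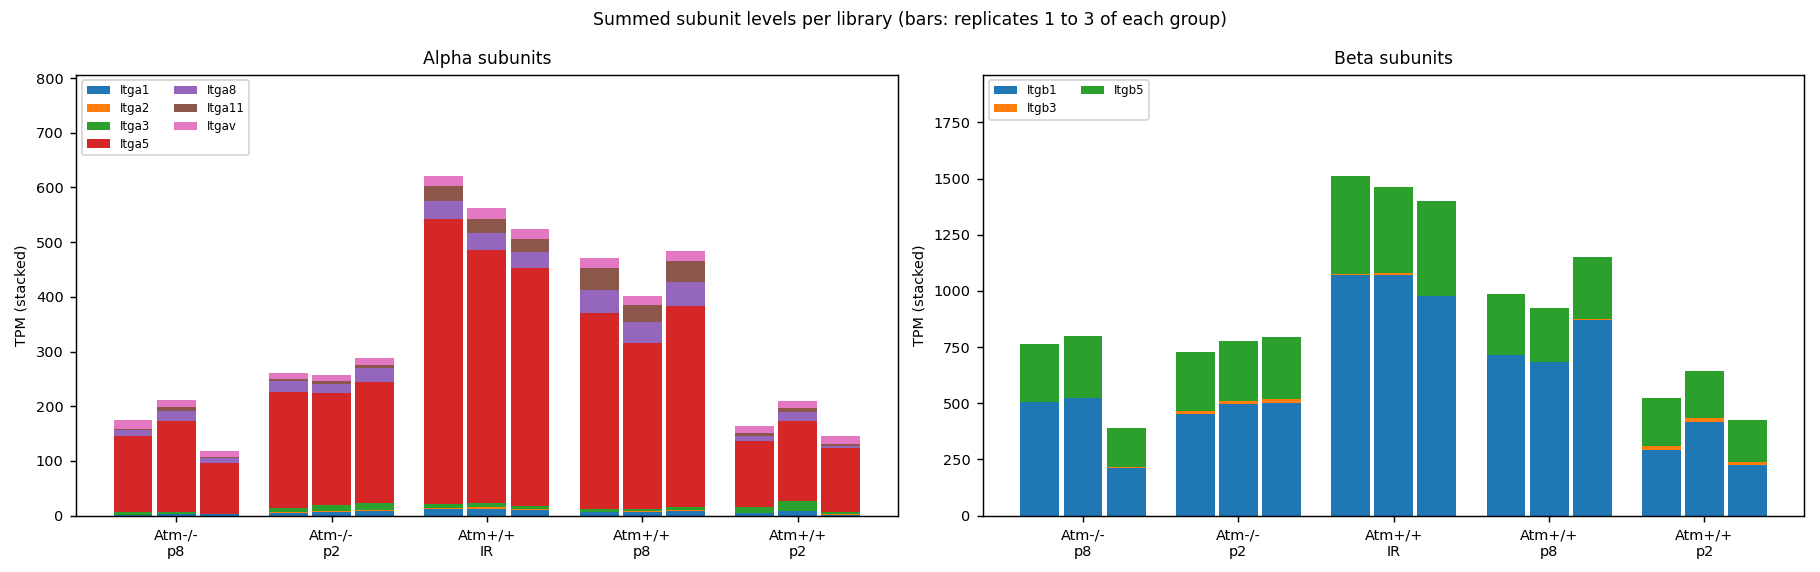
Stacked TPM of the 7 α chains (left) and the 3 β chains (right), 1 bar per library, with the replicates 1 to 3 of each group side by side (p8, passage 8; p2, passage 2; IR, irradiated). The Itga5 segment is the tallest of the α chains in each library, and the summed α level is 524 to 620 TPM in irradiated cells, against 402 to 484 TPM in Atm+/+ passage 8 and 146 to 209 TPM in Atm+/+ passage 2 libraries.

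The summed level of the 7 α chains was 118 to 212 TPM in Atm-/- passage 8, 257 to 289 in Atm-/- passage 2, 524 to 620 in irradiated Atm+/+, 402 to 484 in Atm+/+ passage 8 and 146 to 209 TPM in Atm+/+ passage 2 libraries. The β chains had the same 2 highest groups. Their sum was 391 to 798 TPM in Atm-/- passage 8, 730 to 794 in Atm-/- passage 2, 1399 to 1510 in irradiated Atm+/+, 922 to 1150 in Atm+/+ passage 8 and 428 to 644 TPM in Atm+/+ passage 2 libraries. Part of such gaps can come from the TPM scale. Itgb5 averaged 235 TPM in Atm-/- and 262 TPM in Atm+/+ passage 8 cells, but 569 and 515 CPM in the same order. Within the α chains the share of Itga11 at passage 8 was 1.49% to 3.45% in Atm-/- and 7.38% to 8.63% in Atm+/+ libraries. It was 1.39% to 1.75% in Atm-/- passage 2, 4.44% to 4.68% in irradiated and 2.29% to 3.01% in Atm+/+ passage 2 libraries.

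The comparison of genotypes at passage 8 asks what loss of Atm goes with after serial culture. The α chains Itga11, Itga8, Itga1 and Itga5 and the shared chain Itgb1 were lower in Atm-/- cells, by 7.59-fold for Itga11 and 1.53-fold for Itgb1, and 0 of the 10 genes were higher. Of all genes tested 9.32% passed at an adjusted p of 0.05, 5.03% higher and 4.29% lower. The median log2 fold change of the 10 genes was -0.85, beside -0.08 over all genes tested.

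Itga11 (chr9:62677826-62783982, plus strand), the α chain of a receptor for fibrillar collagen that is known from fibroblasts and myofibroblasts, had 8.64, 23.3 and 10.3 CPM in Atm-/- passage 8 libraries, against 125.2, 91.5 and 106.2 CPM in Atm+/+ passage 8 libraries. Each Atm-/- library lay below the lowest Atm+/+ one, by a wide gap. The log2 fold change was -2.92 (edgeR adjusted p = 0.000234, SE 0.31). Itga11 lies 9.14 Mb from Atm on the same chromosome, and whether DNA flanking the Atm deletion plays a part was not tested. At passage 2 its log2 fold change between the genotypes was -0.39 (edgeR adjusted p = 0.488, SE 0.29).

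Itga8 (chr2:12106632-12301922, minus strand), whose product binds nephronectin and fibronectin with Itgb1 and marks contractile mesenchyme, had 42.5, 68.0 and 45.6 CPM in Atm-/- passage 8 libraries, against 149.7, 139.1 and 145.6 CPM in Atm+/+ ones. The groups were again apart. Its log2 fold change was -1.48 (edgeR adjusted p = 0.00762, SE 0.29). An antisense gene shares 5.05% of its exon bases and had 0 to 75 counts per library, against 417 to 5304 for Itga8.

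Itga5 (chr15:103344286-103366763, minus strand) had 408.1, 473.0 and 408.7 CPM in Atm-/- passage 8 libraries, against 980.3, 834.8 and 909.6 CPM in Atm+/+ ones, a log2 fold change of -1.08 (edgeR adjusted p = 0.00085, SE 0.14). The lowest Atm+/+ library was thus well above the highest Atm-/- one. Itga1 (chr13:114953096-115101964, minus strand), an α chain that binds collagen IV of basement membranes, had 10.1, 21.8 and 26.8 CPM in Atm-/- libraries, against 44.8, 46.9 and 54.9 CPM in Atm+/+ ones. There was no overlap, but the Atm-/- libraries spread widely, and the log2 fold change of -1.33 (SE 0.38) passed narrowly (edgeR adjusted p = 0.0459). Another protein-coding gene, Gm49395, shares 3.68% of the Itga1 exon bases on the same strand. Its part in the Itga1 counts was not tested. Itgb1 (chr8:128685654-128733200, plus strand) had 1289, 1284 and 805.8 CPM in Atm-/- libraries, against 1686, 1615 and 1862 CPM in Atm+/+ ones, a log2 fold change of -0.61 (edgeR adjusted p = 0.0386, SE 0.17). The lowest of the 6 was the Atm-/- replicate with few genes detected.

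Among those that did not pass, Itga2 (chr13:114833081-114932100, minus strand), a collagen-binding α chain at low level, had 0.727, 2.31 and 0 CPM in Atm-/- passage 8 libraries (25, 72 and 0 counts), against 2.78, 4.21 and 5.66 CPM in Atm+/+ ones. The groups did not overlap, which held for 39.8% of all genes tested, and the log2 fold change was -1.94 (edgeR adjusted p = 0.080, SE 0.67). Itgb5 (chr16:33829665-33949338, plus strand) had 569 ± 5.55 CPM in Atm-/- cells and 515 ± 33.3 CPM in Atm+/+ cells, and Itgav (chr2:83724397-83806916, plus strand) 68.9 ± 10.1 and 76.8 ± 5.33 CPM in the same order of genotypes (SD, n = 3 each). Their log2 fold changes were 0.14 (SE 0.14) and -0.16 (SE 0.19). A gene on the opposite strand shares 5.9% of the Itgav exon bases and had 0 to 10 counts per library. Itga3 and Itgb3 overlapped between the genotypes, at -0.21 (SE 0.46) and 0.50 (SE 0.37).

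**Figure D2:**
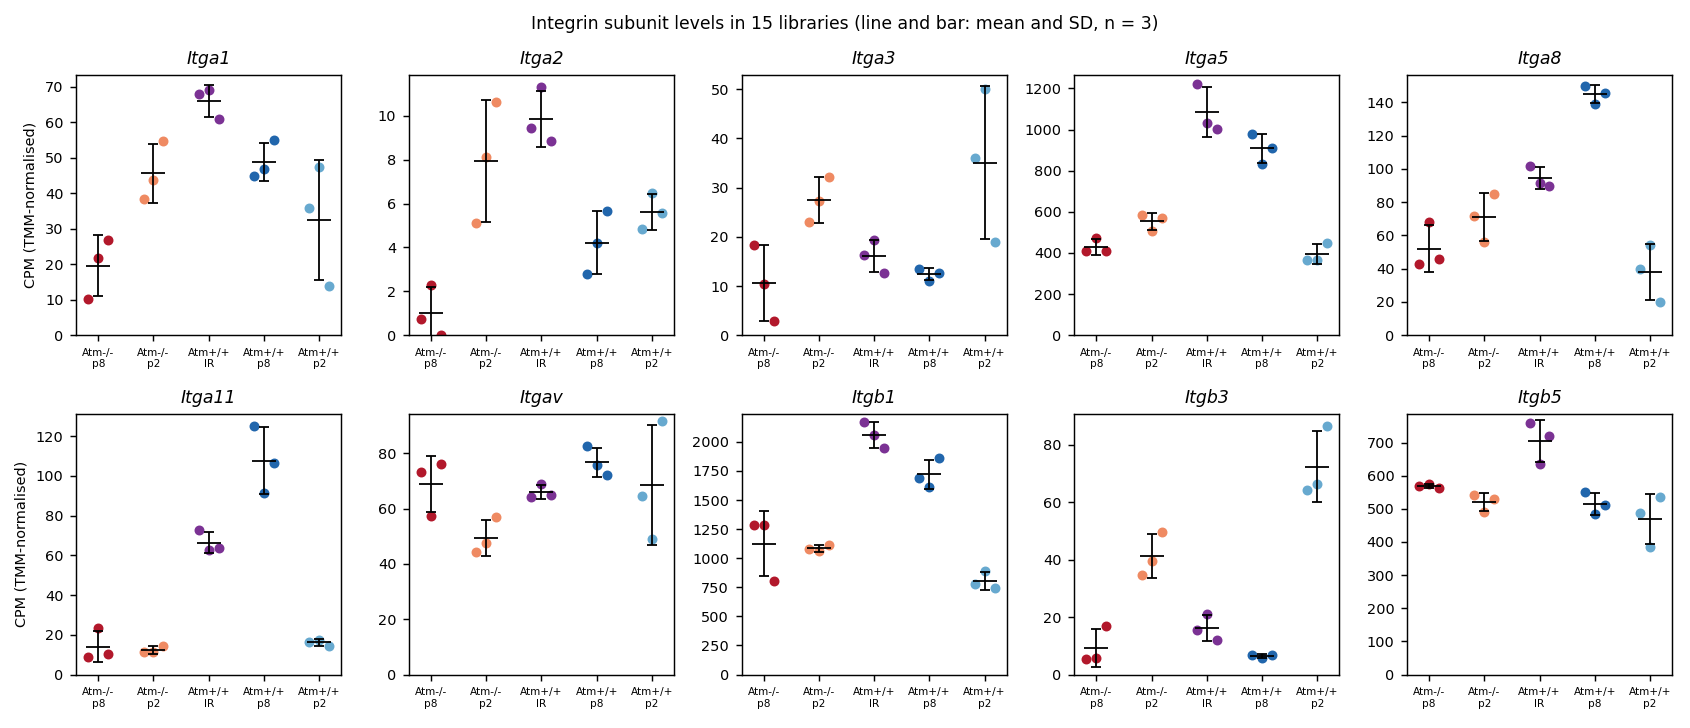
TMM-normalised CPM (y axis, from 0) of the 10 genes in the 15 libraries, with points for libraries and a black line and bar for the mean and SD of 3 (p8, passage 8; p2, passage 2; IR, irradiated). Itga5, Itga8, Itga11 and Itgb1 are high in irradiated and passage 8 Atm+/+ libraries and lower in the other 3 groups, while Itgb3 and Itga3 have their highest means in both passage 2 groups.

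These calls rested on a spread estimated over all 5 groups. In a fit of only the 2 groups compared 0 of the 10 passed, with an adjusted p of 0.0725 for Itga5, Itga8 and Itga11, whereas those 3 passed in the other 24 of 25 alternatives. Itga1 lost its call in 15 and Itgb1 in 16 of the 25 alternatives, among them, for both, the fits without any 1 of Atm+/+ passage 8 replicates 1 to 3, Atm+/+ passage 2 replicate 1 or the irradiated and Atm-/- passage 2 libraries, for Itga1 the fit without Atm-/- passage 8 replicate 1, and for Itgb1 that without Atm-/- passage 8 replicate 3.

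Summed marker levels moved with these genes. The summed level of 7 smooth muscle markers such as Acta2 and Myh11, which myofibroblasts also make, was 4647 to 7622 TPM in Atm-/- passage 8 and 12750 to 13890 TPM in Atm+/+ passage 8 libraries, with none of the 7 at 0. The 10 fibroblast markers summed to 2699 to 5607 TPM in Atm-/- passage 8 and 11200 to 14290 TPM in Atm+/+ passage 8 libraries. Of these, Col1a1, Col1a2, Col3a1 and Fn1 are also among the ligands below. Vim overlapped, at 1942, 1561 and 1065 TPM in Atm-/- and 1139, 1145 and 1242 TPM in Atm+/+ libraries, and the rest of the list was lower without overlap. The part of the smooth muscle and fibroblast markers in the lower integrin levels was not tested. The macrophage list was at 14.9 to 45.0 TPM in Atm-/- and 42.9 to 78.6 TPM in Atm+/+ libraries of that passage, with Ptprc and Adgre1 at 0 in the Atm-/- ones.

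The ligands of these receptors were measured in the same libraries. Of 23 listed ligands 14 were lower in Atm-/- cells at passage 8, 1 was higher and 8 did not pass. The median of the 23 was -1.297. The 4 with the lowest p were Col1a2, lower by a log2 fold change of -1.93 (SE 0.17), and Col1a1 with -2.09 (SE 0.22), the chains of collagen I, Col4a1 of basement membranes with -1.82 (SE 0.21), and Fbn1 of microfibrils with -0.92 (SE 0.13). Each of the 4 passed (edgeR adjusted p = 0.000112, 0.000234, 0.000431 and 0.00179 in the order given). Of 29 tested genes of the adhesion machinery, 3 were lower, Nexn, Fermt2 and Tns1, and Parvb was higher. Nexn, an actin filament protein, had a log2 fold change of -0.98 (SE 0.14), the kindlin gene Fermt2 -0.79 (SE 0.16), the tensin gene Tns1 -0.56 (SE 0.15) and the parvin gene Parvb 1.28 (SE 0.32). The list's median was -0.28.

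The same comparison at passage 2 asks what loss of Atm goes with in early cultures. In edgeR 0 of the 10 genes passed, while 0.969% of all genes did. At an unadjusted p under 0.05 there were 5, and DESeq2 called 1 (Itga5). Itga5 had 583.3, 506.2 and 571.7 CPM in Atm-/- passage 2 libraries, against 367.8, 364.0 and 448.8 CPM in Atm+/+ passage 2 ones. The groups did not overlap, which 25.8% of all genes shared, and the log2 fold change was 0.49 (edgeR adjusted p = 0.128, SE 0.14).

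Itga8 averaged 71.1 ± 14.5 CPM in Atm-/- and 38.0 ± 17.0 CPM in Atm+/+ cells (SD, n = 3 each), a log2 fold change of 0.90 (edgeR adjusted p = 0.176, SE 0.28). Itgb1 had 1085 ± 28.0 CPM in Atm-/- and 806 ± 75.8 CPM in Atm+/+ cells, at 0.43 (edgeR adjusted p = 0.262, SE 0.17). Itgb3 averaged 41.2 ± 7.52 CPM in Atm-/- and 72.3 ± 12.4 CPM in Atm+/+ cells, at -0.81 (edgeR adjusted p = 0.295, SE 0.36). In these 3 genes too the libraries of the genotypes did not overlap. The remaining 6 overlapped, with log2 fold changes between -0.47 for Itgav and 0.50 for Itga2. Without Atm-/- passage 8 replicate 3 there were 3 that passed (Itga5, Itgb1 and Itgb3), and without Atm+/+ passage 2 replicate 2 there were 2 (Itga8 and Itgav). Around the receptors, 2 of 23 ligands were higher in Atm-/- cells at passage 2, Ccn2 by 1.41 (SE 0.17) and Thbs1 by 1.47 (SE 0.29), and 21 did not pass. Of 29 machinery genes Nexn was higher by 0.67 (SE 0.14) and 28 did not pass. The smooth muscle markers summed to 8845 to 10420 TPM in Atm-/- and 4149 to 5334 TPM in Atm+/+ passage 2 libraries. In the same order macrophage markers summed to 989 to 1486 and 2011 to 2274 TPM, and platelet and megakaryocyte markers to 240 to 456 and 591 to 1196 TPM. The fibroblast, endothelial, pericyte, epithelial and mesothelial sums overlapped. The part of these markers in the integrin levels was not tested.

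Passage 8 against passage 2 in Atm+/+ cells asks what serial culture changes in cells with Atm. Itga11 rose 6.65-fold, Itga8 3.80-fold, Itga5 2.31-fold and Itgb1 2.14-fold. Itgb3 and the laminin receptor chain Itga3 fell, by 11.2-fold and 2.83-fold. So 6 of the 10 genes passed, 4 higher and 2 lower, and 4 did not, while 23.3% of all genes tested passed, 9.80% higher and 13.5% lower. The median of the 10 was 0.38, with the median of all genes at 4e-04.

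Itga11 had 125.2, 91.5 and 106.2 CPM at passage 8, against 16.4, 17.6 and 14.5 CPM at passage 2, and Itga8 had 149.7, 139.1 and 145.6 CPM at passage 8, against 39.8, 54.1 and 20.2 CPM at passage 2. In both, each passage 8 library was above every passage 2 library. The log2 fold change was 2.73 for Itga11 (edgeR adjusted p = 3e-05, SE 0.30) and 1.93 for Itga8 (edgeR adjusted p = 0.000377, SE 0.29).

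Itga5 had 980.3, 834.8 and 909.6 CPM at passage 8, against 367.8, 364.0 and 448.8 CPM at passage 2, a log2 fold change of 1.21 (edgeR adjusted p = 4.48e-05, SE 0.14). Itgb1, its partner chain, had 1686, 1615 and 1862 CPM at passage 8, against 781, 891 and 746 CPM at passage 2, a log2 fold change of 1.09 (edgeR adjusted p = 0.000453, SE 0.17). The pair kept nearly the same profile over the 15 libraries: after each gene's own mean was taken off, log2 CPM of Itga5 and Itgb1 differed by a root mean square of 0.24, the smallest of the 45 pairs among the 10 genes.

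Itgb3 (chr11:104608000-104670476, plus strand), the β chain of the vitronectin receptor and of the platelet fibrinogen receptor, went the other way. It had 6.74, 5.83 and 6.83 CPM at passage 8, against 64.1, 66.3 and 86.5 CPM at passage 2. The log2 fold change was -3.48 (edgeR adjusted p = 3.49e-05, SE 0.39). Itga3 (chr11:95044474-95076801, minus strand) had 13.5, 11.0 and 12.7 CPM at passage 8, against 36.1, 50.1 and 19.0 CPM at passage 2. It did not overlap between the passages either, as 47.5% of all genes did not, and its log2 fold change was -1.50 (edgeR adjusted p = 0.0338, SE 0.47).

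Itga1 had 44.8, 46.9 and 54.9 CPM at passage 8 and 36.0, 47.4 and 13.9 CPM at passage 2. Those groups overlapped, at a log2 fold change of 0.59 (edgeR adjusted p = 0.265, SE 0.38). Itgav, Itgb5 and Itga2 also overlapped, at 0.17 (SE 0.19), 0.13 (SE 0.14) and -0.42 (SE 0.63). The calls of Itga5, Itga8, Itga11, Itgb1 and Itgb3 were made in all 26 alternatives tried, that of Itga3 in 10 of them. Itga3 was lost in 16, among them the TPM fits and the fits without any 1 of Atm+/+ passage 8 replicates 1 to 3, Atm+/+ passage 2 replicates 1 and 2, or the irradiated and Atm-/- passage 2 libraries (largest adjusted p 0.225), and the fit with a replicate block within genotype (adjusted p = 0.0788).

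Other parts of the adhesion apparatus were higher with passage as well. Of 29 adhesion machinery genes tested 12 rose, 15 did not pass and 2, Fermt3 and Parvb, fell. The lowest p values were those of Nexn with a log2 fold change of 1.70 (SE 0.15), Fermt2 with 1.25 (SE 0.16), the blood cell kindlin gene Fermt3 with -3.95 (SE 0.55) and the zyxin gene Zyx with 1.09 (SE 0.15). Of the 23 ligands 8 rose, 13 did not pass and Tgfb1 and Vtn fell. The lowest p values were those of Ccn2 with 3.06 (SE 0.18), Thbs1 with 4.20 (SE 0.32), Ccn1 with 1.21 (SE 0.18), all matricellular proteins that bind integrins, and Tnc, the tenascin gene, with 1.51 (SE 0.27). The smooth muscle markers summed to 12750 to 13890 TPM at passage 8 and 4149 to 5334 TPM at passage 2 in Atm+/+ libraries. Their part in the integrin changes was not tested.

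**Figure D3:**
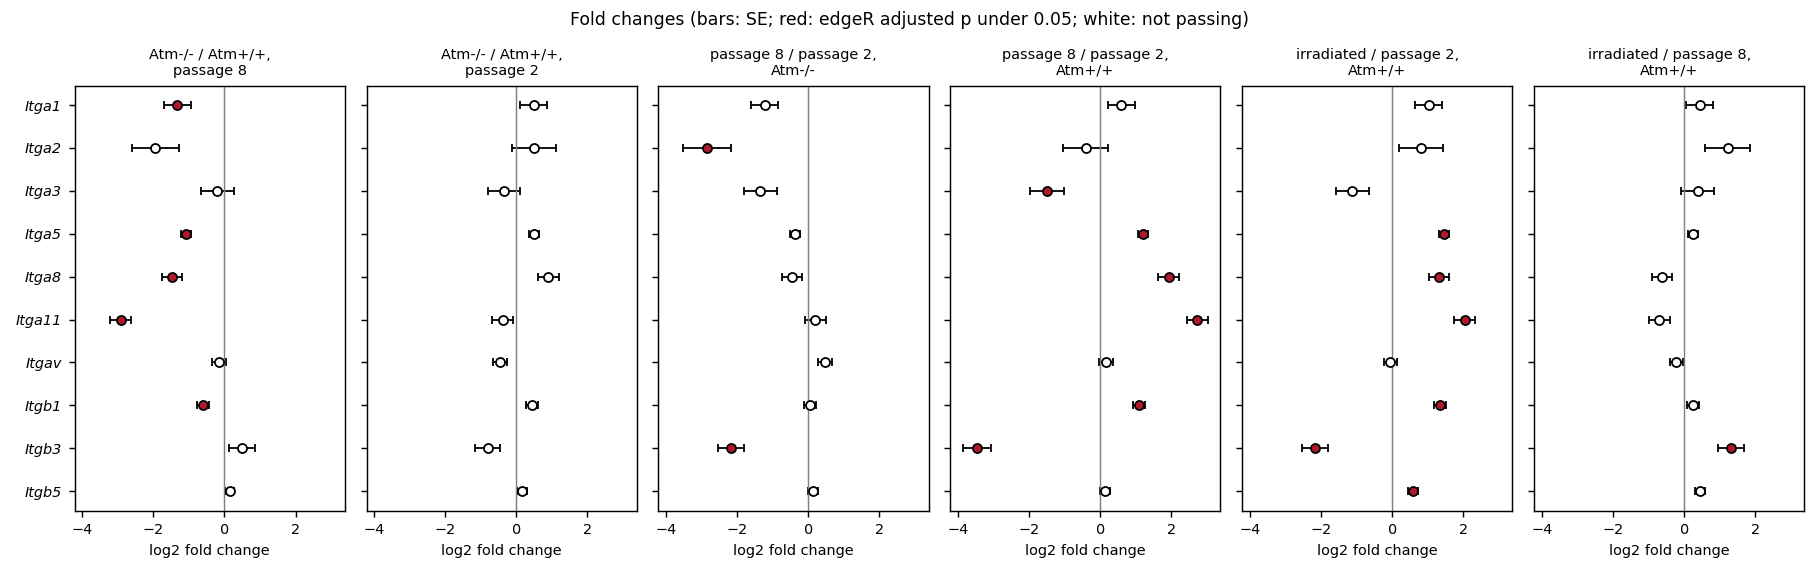
Log2 fold changes (x axis) of the 10 genes (rows) in 6 comparisons (panels, first-named group over the other), with SE as bars; red points passed in edgeR at an adjusted p of 0.05 and white points did not. Itga5, Itga8, Itga11 and Itgb1 are right of 0 in both panels that set passage 8 or irradiated Atm+/+ cells against passage 2, and left of 0 in the panel of Atm-/- against Atm+/+ cells at passage 8.

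Passage 8 against passage 2 in Atm-/- cells gave 0 genes higher and 2 lower of the 10, while 13% of all genes tested passed, 4.76% higher and 8.25% lower. The median of the 10 was -0.41, beside -0.08 over all genes. Itgb3 fell 4.51-fold and the low-level chain Itga2 fell 7.23-fold. Itgb3 had 5.35, 5.78 and 17.0 CPM at passage 8, against 34.7, 39.5 and 49.4 CPM at passage 2, a log2 fold change of -2.17 (edgeR adjusted p = 0.00155, SE 0.38). Itga2 had 0.727, 2.31 and 0 CPM at passage 8, against 5.10, 8.13 and 10.6 CPM at passage 2, a log2 fold change of -2.85 (edgeR adjusted p = 0.0129, SE 0.68).

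The chains that rose with passage in Atm+/+ cells did not pass here. Itga11 had 8.64, 23.3 and 10.3 CPM at passage 8, against 11.2, 11.4 and 14.6 CPM at passage 2, a log2 fold change of 0.20 (edgeR adjusted p = 0.699, SE 0.29). Itga8 had 42.5, 68.0 and 45.6 CPM at passage 8, against 71.9, 56.2 and 85.1 CPM at passage 2, at -0.45 (edgeR adjusted p = 0.331, SE 0.28). Both overlapped between the passages. Itga5 did not overlap, as 37.0% of all genes did not, with 408.1, 473.0 and 408.7 CPM at passage 8, against 583.3, 506.2 and 571.7 CPM at passage 2. Its log2 fold change was -0.37 (edgeR adjusted p = 0.104, SE 0.14). Itgb1 was at 0.05 (SE 0.17).

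Itga1 and Itga3 lay lower at passage 8 without passing, at -1.23 (edgeR adjusted p = 0.0506, SE 0.38) and -1.36 (edgeR adjusted p = 0.075, SE 0.47), and Itgav and Itgb5 had 0.48 (SE 0.20) and 0.13 (SE 0.14). The count depended on the libraries: 5 of the 10 passed in DESeq2, 5 without the 2 libraries that stood apart, 5 without Atm+/+ passage 2 replicate 3 alone, 1 (Itgb3) without Atm-/- passage 2 replicate 3, and 0 in a fit of only these 2 groups. Itga2 was also lost without Atm-/- passage 8 replicate 1. With a replicate block within genotype Itga1 passed too (edgeR adjusted p = 0.0463). The smooth muscle markers summed to 4647 to 7622 TPM at passage 8 and 8845 to 10420 TPM at passage 2 in Atm-/- libraries, and the fibroblast markers to 2699 to 5607 TPM at passage 8 and 9169 to 12000 TPM at passage 2. Their part in the integrin levels was not tested.

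Among the ligands 11 of 23 fell with passage in Atm-/- cells, 3 rose and 9 did not pass, and the median of the 23 was -0.74. Those that fell with the lowest p were Postn with a log2 fold change of -3.19 (SE 0.37), Col1a1 with -1.88 (SE 0.22) and the nephronectin gene Npnt with -3.58 (SE 0.43). Nephronectin is the ligand of the receptor that Itga8 forms. Of the adhesion machinery Zyx and Tns2 rose, by 0.76 (SE 0.15) and 0.66 (SE 0.16), Fermt3 fell by 3.71 (SE 0.56) and 26 did not pass.

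Whether the passage effect itself differed between the genotypes was tested as a difference of the 2 log2 fold changes, Atm-/- minus Atm+/+. It was negative and passed for Itga11, Itga8, Itga5 and Itgb1, so 4 of the 10 were lower and 0 higher, while 4.43% of all genes passed, 2.46% higher and 1.97% lower. The difference was -2.54 for Itga11 (edgeR adjusted p = 0.0107, SE 0.41) and -2.38 for Itga8 (edgeR adjusted p = 0.0131, SE 0.40). It was -1.57 for Itga5 (edgeR adjusted p = 0.00291, SE 0.20) and -1.04 for Itgb1 (edgeR adjusted p = 0.0331, SE 0.24). These 4 are the same chains that were lower in Atm-/- cells at passage 8 beside Itga1, and the comparisons share the passage 8 libraries.

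Itga1 and Itga2 had differences of -1.82 (edgeR adjusted p = 0.0604, SE 0.54) and -2.44 (edgeR adjusted p = 0.10, SE 0.91), and Itgb3 of 1.31 (edgeR adjusted p = 0.112, SE 0.51), none of which passed. Itgav, Itga3 and Itgb5 were at 0.31 (SE 0.28), 0.14 (SE 0.65) and -0.01 (SE 0.19). The median of the 10 was -1.31, beside -0.14 over all genes. The differences of Itga5, Itga8 and Itga11 passed in all 26 alternatives, with largest adjusted p of 0.0267, 0.0476 and 0.0424. That of Itgb1 was lost in 15 of 26, among them the fit of only these 4 groups and the fits without any 1 of Atm+/+ passage 8 replicates 1 to 3, Atm+/+ passage 2 replicates 1 and 3, or the irradiated and Atm-/- passage 2 libraries (largest adjusted p 0.108). It was also lost with a replicate block within genotype (adjusted p = 0.0838). The smooth muscle marker sums given above moved the same way as these differences, lower at passage 8 than at passage 2 in Atm-/- and higher in Atm+/+ libraries, without overlap. The fibroblast sums were lower at passage 8 in Atm-/- libraries without overlap, and in Atm+/+ libraries they overlapped, at 11200 to 14290 TPM at passage 8 and 6077 to 14360 TPM at passage 2. Their part in the differences was not tested.

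Among the 23 ligands 11 differed, each in the negative direction, and 12 did not pass. Those with the lowest p were Ccn2 at -1.87 (SE 0.23), Col1a1 at -2.28 (SE 0.30), Col1a2 at -1.78 (SE 0.24) and Thbs1 at -3.07 (SE 0.41). Of 29 adhesion machinery genes 5 differed, Nexn at -1.65 (SE 0.20), Fermt2 at -1.31 (SE 0.22), the actinin gene Actn1 at -1.21 (SE 0.28), Tns1 at -0.86 (SE 0.21) and Lims2 at -1.39 (SE 0.34), the last named after its value was seen.

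The promoters of the 4 chains whose passage effect differed are shown to set their start regions side by side. Each runs over 300 bases around the start of the gene, 5′ to 3′ on the strand of the gene (RefSeq, GRCm38.p6). Capitals mark matches, on either strand, to the letters GGGCGG (the GC box), CAGAC (a SMAD half-site), GGAATG (the TEAD site) and TGANTCA (the AP-1 site). A CArG box, the site of serum response factor, was searched by name as well. The regions are chr15:103366742-103367041 (minus strand) for Itga5, chr2:12301895-12302194 (minus strand) for Itga8, chr9:62677605-62677904 (plus strand) for Itga11 and chr8:128685404-128685703 (plus strand) for Itgb1.
Itga5: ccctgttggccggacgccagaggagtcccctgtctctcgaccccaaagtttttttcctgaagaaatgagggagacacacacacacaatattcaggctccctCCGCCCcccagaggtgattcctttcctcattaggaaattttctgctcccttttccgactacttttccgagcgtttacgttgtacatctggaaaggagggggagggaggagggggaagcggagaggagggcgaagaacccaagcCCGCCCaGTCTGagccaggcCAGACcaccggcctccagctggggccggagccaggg
Itga8: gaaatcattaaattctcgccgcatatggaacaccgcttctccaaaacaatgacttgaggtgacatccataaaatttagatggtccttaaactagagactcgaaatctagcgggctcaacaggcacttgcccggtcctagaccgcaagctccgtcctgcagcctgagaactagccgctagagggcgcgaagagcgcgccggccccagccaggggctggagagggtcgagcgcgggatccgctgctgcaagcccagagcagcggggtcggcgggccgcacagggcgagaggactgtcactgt
Itga11: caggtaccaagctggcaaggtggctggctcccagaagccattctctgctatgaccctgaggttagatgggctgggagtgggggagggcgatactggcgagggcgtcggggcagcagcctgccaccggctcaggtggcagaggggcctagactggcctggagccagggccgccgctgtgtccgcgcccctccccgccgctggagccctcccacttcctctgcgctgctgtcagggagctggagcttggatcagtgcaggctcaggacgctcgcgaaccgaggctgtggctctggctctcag
Itgb1: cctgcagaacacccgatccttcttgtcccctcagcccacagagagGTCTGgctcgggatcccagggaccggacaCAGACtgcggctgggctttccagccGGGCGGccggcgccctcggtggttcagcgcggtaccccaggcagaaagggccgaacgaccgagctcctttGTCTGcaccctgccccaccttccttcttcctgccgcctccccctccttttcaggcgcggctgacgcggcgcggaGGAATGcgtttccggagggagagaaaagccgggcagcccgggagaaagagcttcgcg

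Itga5 held 2 GC boxes and 2 SMAD half-sites, and Itgb1 held 1 GC box, 3 SMAD half-sites and 1 TEAD site. Itga8 and Itga11, which had the larger differences, held no match to any of the 5 motifs in this window, so no motif is common to the 4 promoters. Their GC content was 58.7%, 59.0%, 68.0% and 67.3% for Itga5, Itga8, Itga11 and Itgb1, with a median of 52.7% over all promoters. Of the 10 genes 9 had an entry in the promoter table, Itgb3 being the other. A GC box was in the promoters of 6 of these 9, a SMAD half-site in 5, a TEAD site in 1 (Itgb1), an AP-1 site in 1 (Itga3) and a CArG box in 0. Itga3 had promoters starting at 95076665 and 95069149, with the AP-1 site in the latter only, and a gene counted if any of its promoters matched. Over all 32851 promoters of the same length, each counted singly, the shares were 35.7%, 49.6%, 14.7%, 7.81% and 1.63% in that order. A match is a run of letters and not a shown binding site.

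Ordered by group mean, Itga5 and Itgb1 were highest in irradiated cells, then in Atm+/+ passage 8 cells, and Itga8 and Itga11 were highest in Atm+/+ passage 8 cells, then in irradiated ones. In each of the 4 genes those 2 groups were apart from each other and from the 3 below. Among those 3 the neighbours mostly overlapped: Atm-/- passage 8 and Atm+/+ passage 2 cells in Itga5 and in Itga8, the 2 Atm-/- groups in Itga8, Itga11 and Itgb1, and Atm+/+ passage 2 and Atm-/- passage 8 cells in Itga11. Atm+/+ passage 2 cells had the lowest mean of Itga5, Itga8 and Itgb1, and Atm-/- passage 2 cells that of Itga11.

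Irradiation was set against unirradiated Atm+/+ cells at passage 2, the passage on its label, to ask how cells 10 days after 10 Gy differ. Itga11 rose 4.10-fold, Itga5 2.76-fold, Itgb1 2.55-fold, Itga8 2.48-fold and Itgb5 1.501-fold, and Itgb3 fell 4.48-fold. Thus 5 of the 10 were higher and 1 lower, while 27.5% of all genes tested passed, 11.0% higher and 16.5% lower. The median of the 10 was 0.92, beside -0.01 over all genes.

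Itga5 had 1224, 1030.0 and 1004 CPM in irradiated libraries, against 367.8, 364.0 and 448.8 CPM at passage 2, a log2 fold change of 1.46 (edgeR adjusted p = 2.6e-05, SE 0.14). Itgb1 had 2167, 2062 and 1946 CPM in irradiated libraries, against 781, 891 and 746 CPM at passage 2, at 1.35 (edgeR adjusted p = 0.000187, SE 0.17). In both genes every irradiated library lay far above the highest unirradiated one.

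Itga11 had 72.6, 62.8 and 63.7 CPM in irradiated libraries, against 16.4, 17.6 and 14.5 CPM at passage 2, at 2.04 (edgeR adjusted p = 0.000503, SE 0.30). Itga8 had 101.7, 91.7 and 89.5 CPM in irradiated libraries, against 39.8, 54.1 and 20.2 CPM at passage 2, at 1.31 (edgeR adjusted p = 0.00588, SE 0.29). These 2 did not overlap either, which held for 55.0% of all genes in this comparison. Itgb5 had 757.5, 634.0 and 720.7 CPM in irradiated libraries, against 487.0, 385.8 and 534.6 CPM at passage 2, a smaller step at 0.59 (edgeR adjusted p = 0.00782, SE 0.14). Itgb3 had 15.4, 21.0 and 11.99 CPM in irradiated libraries, against 64.1, 66.3 and 86.5 CPM at passage 2, at -2.16 (edgeR adjusted p = 0.00142, SE 0.37).

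Itga1 had 67.8, 69.1 and 60.8 CPM in irradiated libraries, against 36.0, 47.4 and 13.9 CPM at passage 2. The groups did not overlap, with Atm+/+ passage 2 replicate 3 the lowest, and the log2 fold change of 1.02 (edgeR adjusted p = 0.0594, SE 0.38) did not pass, though it did in 9 of 26 alternatives. Itga2 and Itga3 were at 0.81 (SE 0.62) and -1.12 (SE 0.46), and Itgav at -0.05 (SE 0.19), a sign that turned in 13 of 26 alternatives. The 6 calls were made in all 26 alternatives.

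The machinery list had 11 of 29 genes higher, 2 lower (Tns2 and Pxn) and 16 not passing. Nexn rose by 1.81 (SE 0.15), Tns1 by 1.301 (SE 0.15), Fermt2 by 1.2997 (SE 0.16) and Actn1 by 1.62 (SE 0.20), the 4 with the lowest p. Of the ligands 8 of 23 rose, Vtn fell and 14 did not pass, with Ccn2 at 2.96 (SE 0.17), Thbs1 at 3.57 (SE 0.31), Ccn1 at 1.24 (SE 0.18) and the periostin gene Postn at 2.32 (SE 0.35). The smooth muscle markers summed to 20570 to 23120 TPM in irradiated libraries, against 4149 to 5334 TPM at passage 2. Their part in the integrin levels was not tested.

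Irradiated cells were set against Atm+/+ cells at passage 8 as well. Of the 10 genes 1, Itgb3, was higher and 0 lower, while 6.89% of all genes tested passed, 4.30% higher and 2.59% lower. At an unadjusted p under 0.05 there were 4. Itgb3 had 15.4, 21.0 and 11.99 CPM in irradiated libraries, against 6.74, 5.83 and 6.83 CPM at passage 8, a log2 fold change of 1.32 (edgeR adjusted p = 0.0462, SE 0.37). Itga8 and Itga11 lay lower in irradiated cells without passing, at -0.62 (edgeR adjusted p = 0.274, SE 0.28) and -0.70 (edgeR adjusted p = 0.202, SE 0.28), and Itgb5 higher, at 0.45 (edgeR adjusted p = 0.0698, SE 0.14). None of these 3 overlapped between the groups, as 48.4% of all genes did not. The smooth muscle markers summed to 20570 to 23120 TPM in irradiated and 12750 to 13890 TPM in Atm+/+ passage 8 libraries. That sum was thus higher in irradiated cells without overlap, while Itga8 and Itga11 lay lower. Its part in the integrin levels was not tested.

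Itga5 and Itgb1 were at 0.26 (SE 0.14 and 0.17), Itga1 at 0.43 (SE 0.37), Itga2 at 1.23 (SE 0.63), Itga3 at 0.38 (SE 0.46) and Itgav at -0.22 (SE 0.19). The count here was unstable: 9 of the 10 passed in a fit of only these 2 groups, 5 without the 2 libraries that stood apart, 3 without Atm-/- passage 8 replicate 3 alone, and 0 without any 1 of Atm+/+ irradiated replicates 1 and 2, Atm+/+ passage 8 replicates 1 to 3, Atm-/- passage 2 replicates 1 to 3 or Atm+/+ passage 2 replicate 1. Irradiated and passage 8 cells were both compared with the same passage 2 libraries, so those 2 sets of fold changes are not independent. Of the ligands 3 were higher in irradiated than in passage 8 cells, 2 lower and 18 not passing, with Postn at 2.16 (SE 0.35), Col1a2 at -0.95 (SE 0.17), the laminin chain Lama5 at -1.14 (SE 0.27) and Tgfb1 at 0.59 (SE 0.14). Of the machinery genes Fermt3 and Parvb were higher, at 2.96 (SE 0.53) and 1.35 (SE 0.32), Tns2 and Zyx lower, at -0.72 (SE 0.16) and -0.69 (SE 0.15), and 25 did not pass.

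The level of Itgb3 was 5.35 to 17.0 CPM in Atm-/- passage 8, 34.7 to 49.4 in Atm-/- passage 2, 11.99 to 21.0 in irradiated, 5.83 to 6.83 in Atm+/+ passage 8 and 64.1 to 86.5 CPM in Atm+/+ passage 2 libraries. It thus was highest in both passage 2 groups, with Atm+/+ above Atm-/-. The group means of Itga3 were highest in the same groups, at 27.5 CPM in Atm-/- and 35.05 CPM in Atm+/+ passage 2 cells, whose libraries overlapped. Irradiated and Atm-/- passage 8 cells were not compared by a test. Their Itgb3 ranges overlapped only through Atm-/- passage 8 replicate 3 at 17.0 CPM, as replicates 1 and 2 had 5.35 and 5.78 CPM. Between the genotypes at passage 8 Itgb3 overlapped and did not pass (edgeR adjusted p = 0.393). By TPM it made up 3.04% to 4.01% of the 3 β chains in Atm+/+ passage 2, and 0.181% to 0.762% in Atm-/- passage 8 libraries.

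Summed markers of macrophages, of endothelium, of pericytes and of platelets and megakaryocytes were also higher in both passage 2 groups than in both passage 8 groups. The 6 mesothelial markers summed higher at passage 8, at 7.93 to 33.1 TPM in Atm-/- and 2.87 to 4.20 TPM in Atm+/+ libraries. At passage 2 they summed to 1.12 to 2.30 and 0.895 to 1.33 TPM in the same order. The epithelial and smooth muscle sums were not higher in both passage 2 groups either. Beside the macrophage list given above, 8 endothelial markers summed to 3.43 to 17.4 TPM in Atm-/- passage 8, 157 to 253 in Atm-/- passage 2, 43.5 to 137 in irradiated, 1.67 to 1.85 in Atm+/+ passage 8 and 179 to 424 TPM in Atm+/+ passage 2 libraries. The 5 platelet and megakaryocyte markers summed to 6.52 to 9.06, 240 to 456, 173 to 426, 6.38 to 9.13 and 591 to 1196 TPM in the same 5 groups, with Gp9 and Gp6, which define platelets, at 0 in both passage 2 groups. Nearly all of the higher sums was Pf4. It had 444.7, 247.8 and 226.8 TPM in Atm-/- and 819.9, 576.4 and 1180 TPM in Atm+/+ passage 2 libraries. At passage 8 it had 0.7394, 1.105 and 0.1511 TPM in Atm-/- and 1.734, 3.441 and 2.083 TPM in Atm+/+ libraries. Gp1bb overlapped between the passages in both genotypes. The 5 pericyte markers summed to 4.765 to 6.28 TPM in Atm-/- passage 8 and 45.9 to 75.3 TPM in Atm-/- passage 2 libraries. They summed to 23.5 to 35.3 TPM in irradiated, 11.7 to 16.6 in Atm+/+ passage 8 and 44.7 to 121.7 TPM in Atm+/+ passage 2 libraries. Among them Cspg4 overlapped between the passages in Atm-/- libraries, and Abcc9 and Notch3 in Atm+/+ ones. The part of those cells in the Itgb3 level was not tested. Between irradiated and passage 2 Atm+/+ cells, where Itgb3 was lower in each irradiated library, the endothelial, pericyte and platelet sums were lower without overlap. The macrophage sums overlapped.

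**Figure D4:**
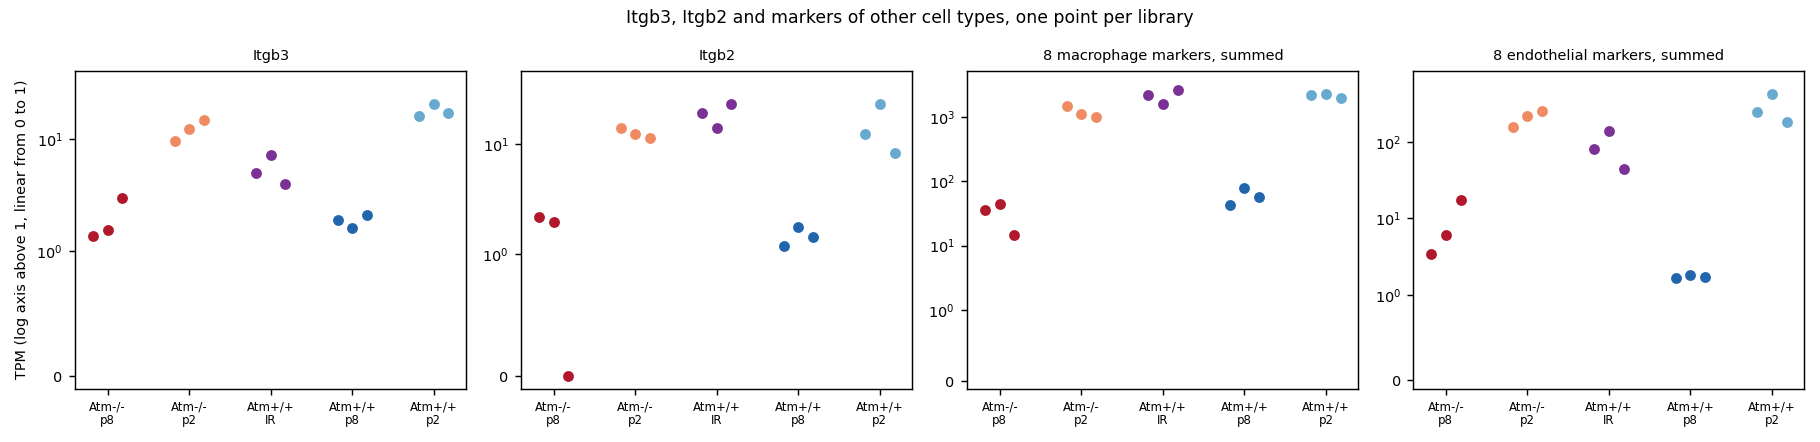
TPM of Itgb3, of the leukocyte β chain Itgb2, and the summed TPM of 8 macrophage and 8 endothelial markers, 1 point per library, on an axis that is logarithmic above 1 and linear from 0 to 1 (p8, passage 8; p2, passage 2; IR, irradiated). All 4 are lower in the passage 8 groups than in the passage 2 groups, and irradiated libraries are near passage 2 for Itgb2 and macrophage markers and lower than Atm+/+ passage 2 libraries for Itgb3 and endothelial markers.

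Over the 15 libraries the genes with the profile most like that of Itgb3, among 10300 candidates, were Exoc3l, Gja5 and Sdcbp2, with root mean square differences in centred log2 CPM of 0.29, 0.39 and 0.40. For Itga11 they were Shc4, Cacna1g and the collagen XII gene Col12a1, at 0.66, 0.67 and 0.70. For Itga2 they were Spata13, Lrrn2 and Gucy1b1, each at 0.53. Ranked by the range of their 5 group means in log2 CPM, the members ran from Itga2 at 4.35, Itgb3 at 3.46 and Itga11 at 3.11 down to Itgav at 0.64 and Itgb5 at 0.59. Itgav, which ran from 44.2 to 91.8 CPM, passed in 0 of the 7 comparisons in edgeR. Its partner chains Itgb3 and Itgb5 passed in 4 and 1 of them.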

How the data were processed

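Gene counts were deposited as whole numbers of reads per Ensembl gene for 48440 genes in 15 libraries made from total RNA. Per the submitters' processing notes, featureCounts, SAMtools 1.3.1 and the mm10 build were used. Which aligner was used, and whether counting used strand, is not given in the sources used here. TPM values, scaled to gene length and depth, were deposited by the authors for 48082 genes, and a second deposited table of 15515 expressed genes held the same TPM values (100% equal). Symbols came from GENCODE (48058 IDs named).

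Counts were filtered with filterByExpr, scaled by TMM and fitted with edgeR 4.0.16 in R 4.3.3 (robust quasi-likelihood test, 1 mean per group over all 15 libraries, Benjamini-Hochberg adjustment over 18167 genes, threshold 0.05). Each group's replicates are 3 fibroblast strains, and the spread behind the p-values was estimated within groups over all 15 libraries. Libraries of different groups may share a strain and were treated as independent in the main fit. Alternatives used DESeq2 1.42.0, limma 3.58.1 on log2(TPM + 1) or log2(TPM + 0.1), other filters and size factors, only the groups compared, a replicate block, and fewer libraries. The fit was tested on simulated data. The 10 genes are named throughout, and of each other list up to 4 passing genes with the lowest p in each comparison. For the 3 genes with the widest range of group means, the 3 genes most like them in profile are named. The members and lists were chosen with earlier results of these data known. Protein sequences were not used here. The result of 1 listed ligand gene is not reported here.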

Additional observations from a re-analysis of the deposited data

Results flagged for a closer look

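The effect of passage differed between Atm-/- and Atm+/+ cells for 4 of the 10 integrin genes, by the test of the difference itself. As the log2 fold change of passage 8 over passage 2 in Atm-/- cells minus that in Atm+/+ cells, it was -2.54 for Itga11, -2.38 for Itga8, -1.57 for Itga5 and -1.04 for Itgb1. In Atm-/- cells their own passage effects were 0.20, -0.45, -0.37 and 0.05, against 2.73, 1.93, 1.21 and 1.09 in Atm+/+ cells, in the same order of genes. The difference of Itgb1 did not pass in 15 of 26 alternatives, among them a replicate block within genotype (edgeR adjusted p = 0.0838). The summed smooth muscle markers moved the same way as these differences. They were at 4647 to 7622 TPM in Atm-/- passage 8 and 8845 to 10420 TPM in Atm-/- passage 2 libraries. In Atm+/+ libraries they were at 12750 to 13890 TPM at passage 8 and 4149 to 5334 TPM at passage 2. Within Atm-/- cells the sum fell without overlap, while the passage effects of Itga11 and Itgb1 were 0.20 and 0.05. The part of these markers was not tested. Dixon's test of a single outlying value was not run on these groups of 3 libraries.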

How the results depend on the processing

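Counts are of the 10 genes that passed. For Atm-/- against Atm+/+ cells at passage 2 the count was 0, and it was 1 in DESeq2, 1 with 13 libraries (without Atm-/- passage 8 replicate 3 and Atm+/+ passage 2 replicate 3) and 0 to 3 with each library left out. At passage 8 it was 5, and 3 with no filter, 3 on log2(TPM + 1) with no filter, 0 with only the groups compared and 3 to 6 with each library left out. For passage 8 against passage 2 in Atm-/- cells it was 2, and 5 in DESeq2, 5 with 13 libraries, 4 on log2(TPM + 1) and on log2(TPM + 0.1), 0 with only the groups compared and 1 to 5 with each library left out. For irradiated against passage 8 Atm+/+ cells it was 1, and 2 in DESeq2, 0 with DESeq2 size factors, 0 with the strict filter, 9 with only the groups compared, 3 on log2(TPM + 1), 2 on log2(TPM + 0.1), 2 on log2(TPM + 1) with no filter, 5 with 13 libraries and 0 to 3 with each library left out. The other 3 counts stayed within 1.5 times, at 5 to 6, 6 to 8 and 3 to 6 with each library left out for passage in Atm+/+ cells, irradiation against passage 2 and the difference of passage effects. The causes were not tested.

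Signs turned for genes that had not passed. On log2(TPM + 1), with and without a filter, and on log2(TPM + 0.1), Itgb5 at passage 8 between the genotypes was -0.18. For passage in Atm-/- cells Itga11 was -0.20 and -0.29, Itgb1 -0.33 and Itgb5 -0.22. Itgav after irradiation against passage 2 was 0.40 and 0.42, and in the difference of passage effects -0.30 and -0.31, where Itga3 was -0.52 and -0.84. With 13 libraries Itga3 and Itgb3 at passage 8 between the genotypes were 0.23 and -0.20, Itgav after irradiation 0.26 and in the difference -0.0325. Itgb5 in the difference was 0.03 in DESeq2, 0.0303 with its size factors and 0.0586 with the strict filter. With each library left out, Itga3 between the genotypes ran from -0.62 to 0.0116 at passage 2 and -0.86 to 0.22 at passage 8, and Itgb3 at passage 8 from -0.21 to 0.78. Over the same fits Itga11 and Itgb1 for passage in Atm-/- cells ran from -0.37 to 0.48 and -0.0319 to 0.27, Itgav after irradiation from -0.18 to 0.28, and Itga3 and Itgb5 in the difference from -0.52 to 0.55 and -0.13 to 0.10. No gene that had passed turned its sign.

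Both passages were sampled from 3 strains per genotype, but the labels do not say that a replicate number names a strain, and the deviations of same-numbered libraries correlated at -0.202 to 0.219. With a replicate block the count was 4 at passage 8 between the genotypes (5 without), and the counts of the other 6 comparisons were as before. With a replicate block within genotype it was 5 for passage in Atm+/+, 3 in Atm-/- cells and 3 for the difference, where 144 of all genes passed (804 without). In those fits Itga3 in the difference was -0.13 and -0.22. On log2(TPM + 1) the median of all genes was -0.50 in the difference of passage effects, where it was -0.14 in edgeR. After irradiation against passage 2 it was 0.32, against -0.01 in edgeR. For passage in Atm-/- cells it was -0.32, against -0.08 in edgeR. The fits filtered genes by different rules. Calls over all genes ran from 18 to 4629 at passage 8 between the genotypes and from 722 to 6214 for irradiated against passage 8 cells. Itga2, with 0 to 479 counts a library, was the member most limited by depth.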

Other observations

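Of 14 tested integrin chains outside the 10, 7 fell with passage in Atm-/- cells, 0 rose and 7 did not pass, and 6 fell in Atm+/+ cells, 0 rose and 8 did not pass. The 7 were the leukocyte chains Itgam, Itgax, Itgal and Itgb2 beside Itga9, Itga7 and Itgb8, and the 6 were those leukocyte chains beside Itga6 and Itgb8. Itgam, a leukocyte α chain, had 0.0291, 0.128 and 0 CPM in Atm-/- passage 8 libraries, against 8.75, 5.44 and 4.01 CPM in Atm-/- passage 2 ones. Its log2 fold change with passage was -6.49 in Atm-/- cells (edgeR adjusted p = 8.3e-05, SE 0.76) and -5.76 in Atm+/+ cells (edgeR adjusted p = 4.19e-05, SE 0.66). Itgb2, its β chain, had -2.93 in Atm-/- cells (SE 0.64) and -3.46 in Atm+/+ cells (SE 0.65). The summed macrophage markers moved with them, at 14.9 to 45.0 TPM in Atm-/- passage 8 and 42.9 to 78.6 TPM in Atm+/+ passage 8 libraries, against 989 to 1486 TPM in Atm-/- passage 2 and 2011 to 2274 TPM in Atm+/+ passage 2 libraries. Their part was not tested.

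Itga6, the α chain of laminin receptors, had 5.18, 1.77 and 8.15 CPM in Atm-/- passage 8 libraries, against 0.574, 0.0679 and 0.412 CPM in Atm+/+ passage 8 ones. Every Atm-/- library was above the highest Atm+/+ one. It was the chain of the 14 that was higher in Atm-/- cells at passage 8, by a log2 fold change of 3.77 (edgeR adjusted p = 0.00405, SE 0.64), and Itga9 was lower by -0.87 (edgeR adjusted p = 0.0294, SE 0.22). The passage effect on Itga6 differed between the genotypes by 4.15 (edgeR adjusted p = 0.0214, SE 0.83). Markers of epithelium summed to 17.4 to 49.1 TPM in Atm-/- passage 8 and 8.70 to 9.80 TPM in Atm+/+ passage 8 libraries. Nearly all of that was the keratin gene Krt19, at 46.87, 16.62 and 25.48 TPM in Atm-/- and 8.351, 9.403 and 7.864 TPM in Atm+/+ libraries, while Epcam, Cdh1, Sftpc, Nkx2-1 and Cldn18 were near 0 in both groups. The 6 mesothelial markers summed to 7.93 to 33.1 TPM in Atm-/- and 2.87 to 4.20 TPM in Atm+/+ passage 8 libraries, with Msln at 28.85, 4.919 and 9.034 TPM in Atm-/- and 1.578, 0.8536 and 1.97 TPM in Atm+/+ ones and Muc16 at 0 in both. Endothelial markers summed to 3.43 to 17.4 TPM in Atm-/- and 1.67 to 1.85 TPM in Atm+/+ passage 8 libraries. Their part in the Itga6 level was not tested.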
